A study of Drosophila melanogaster with 12 samples.

Results

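Wing imaginal disc cells of Drosophila melanogaster were set against cultured S2 cells of the same species, both taken from the 4C gate of a DNA content sort, which holds cells in G2 and mitosis. The comparison used 6 of the 12 Affymetrix expression arrays in the series, chosen by their labels: the 3 wing disc G2 arrays (replicates 2, 3 and 4) and the 3 S2 G2 arrays (replicates 4, 5 and 6). The discs were dissected from OreR larvae in the wandering stage of instar 3, reared at 25 °C, and the S2 cells were used at a passage number under 30, with no genetic or drug treatment named for either. The other 6 arrays, wing disc G1 and S2 G1 from the 2C gate of the same 2 sources (3 each), were used to ask whether a difference in the 4C gate was other than that in the 2C gate. Sorted cells went straight into an RNA preservative, and each labelling reaction started from 100 ng of total RNA. The labels number the replicates without saying whether each was its own dissection or its own culture, so the p-values reflect only the spread among these arrays, which may be technical.

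The wing disc is a sac of epithelium, set aside in the embryo, that proliferates in the larva and forms the wing and much of the thorax at metamorphosis. Its cells are patterned by Hedgehog, Dpp, Wingless, Notch and EGF receptor signalling, held together by adherens and septate junctions, and covered apically by a chitin-bearing matrix. A dissected disc also carries myoblasts and pieces of trachea. S2 cells are an established line derived from late embryos, grow without such a tissue, and have features of haemocytes, the blood cells of the fly, including phagocytic receptors, basement membrane secretion and inducible antimicrobial peptides. In bulk samples such as these, fewer cells of a type and less RNA per cell cannot be told apart.

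All values are log2 intensities of probe sets, and every difference is the wing disc G2 mean minus the S2 G2 mean on that log2 scale, given ± its standard error (SE) from limma, with p-values adjusted by the Benjamini-Hochberg method over all 8317 probe sets tested. A probe set was tested if it reached a log2 intensity of 5 on at least 3 of the 6 G2 arrays, and a difference was called at an adjusted p under 0.05. Each of 6760 genes was followed through its brightest probe set over these arrays. Median log2 intensities over the whole array ran from 4.30 to 4.31 on the wing disc G2 arrays and from 4.17 to 4.20 on the S2 G2 arrays, and 40.3% to 42.0% of probe sets were at 5 or more on each G2 array. The standard deviation (SD) of a gene over 3 arrays had a median of 0.12 in wing disc G2 and 0.11 in S2 G2.

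The sorted populations differed over most of the expressed genome. Of 8317 probe sets, 6393 (76.9%) passed the test, 3026 (36.4%) higher in wing disc G2 and 3367 (40.5%) lower. By gene, 5290 of 6760 passed (78.3%): 2424 (35.9%) were higher and 2866 (42.4%) were lower, and the 3 and 3 array values did not overlap for 83.1% of genes. A change of at least 2-fold was called for 2596 genes (38.4%), 1131 (16.7%) of them higher in wing disc G2 and 1465 genes (21.7%) that were lower. The median difference over all genes was -0.08, and the median size of a difference was 0.74. With this background, a list of genes has to be read against the 35.9% and 42.4% that all genes gave.

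Larger changes were found in both directions. A called difference of 2 or more on the log2 scale was found for 612 genes higher in wing disc G2 and 619 lower, and one of 6 or more for 77 higher and 51 lower. Many of the large differences set a bright signal against one near the background of the array. Of the 1131 genes called at least 2-fold higher, 504 (44.6%) had a mean log2 level under 5 in S2 G2, and of the 1465 called at least 2-fold lower, 399 (27.2%) had a mean under 5 in wing disc G2. A gene bright in only one of the cell types passed the filter through that cell type and so had to differ. With every value raised to a floor of 5, the difference of ImpE2 was 8.88 in place of 10.31, that of obst-A 7.15 in place of 9.79, that of nub 4.97 in place of 7.31 and that of srp -5.70 in place of -7.72.

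**Figure D1:**
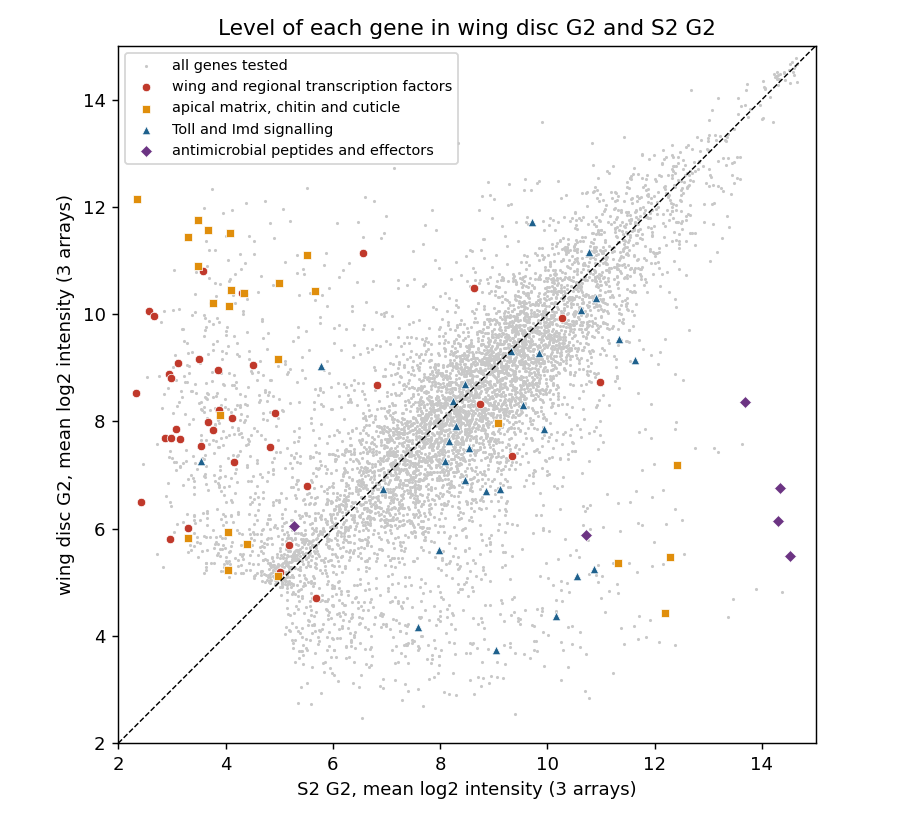
Mean log2 intensity of each of the 6760 genes in wing disc G2 (vertical axis) and in S2 G2 (horizontal axis), each a mean of 3 arrays, with 4 gene lists in colour and the dashed line marking equal levels. Wing transcription factors and apical matrix genes lie mostly above the line at low S2 levels, with 4 Idgf genes far below it, and 5 of 6 antimicrobial peptide genes lie far below the line.

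The cell type labels were checked with markers. Of 7 tested wing disc markers, 6 were higher in wing disc G2. All 7 had a mean log2 level of at least 5 there, but only 1 did in S2 G2. Markers bright only in the disc passed the filter through it and so had to differ. The selector gene vg (CG3830), which directs wing fate with its partner Sd, had log2 levels of 9.35, 8.82 and 8.98 in wing disc G2, against 4.44, 4.63 and 4.49 in S2 G2. The POU factor nub, which marks the wing pouch, had 9.87, 9.86 and 10.17 in wing disc G2, against 2.75, 2.42 and 2.80 in S2 G2. Neither gene's groups overlapped, and the difference was 4.53 ± 0.25 (adjusted p = 7.8e-09) for vg and 7.31 ± 0.17 (adjusted p = 3.9e-12) for nub. Dll, the distal limb factor, differed by 4.33 ± 0.18, hh, the Hedgehog ligand of the posterior compartment, by 5.23 ± 0.23, shg, the E-cadherin gene, by 3.21 ± 0.15, and crb, the apical determinant Crumbs, by 5.68 ± 0.22. The marker wg had no probe set of its own and was not analysed here.

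The dorsal selector ap went against its use as a disc marker. It had log2 levels of 9.87, 10.03 and 9.90 in wing disc G2, against 10.20, 10.37 and 10.26 in S2 G2. It was bright in both cell types, and its difference was -0.35 ± 0.09 (adjusted p = 0.004), so it was lower in wing disc G2 by a small amount with no overlap of the arrays.

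All 6 tested markers of S2 cells were lower in wing disc G2. The GATA factor srp (CG3992), needed for haemocyte and fat body fate, had log2 levels of 3.06, 2.64 and 3.25 in wing disc G2, against 10.71, 10.53 and 10.86 in S2 G2. The wing disc arrays lay below 5 and the S2 arrays above 10, and the difference was -7.72 ± 0.17 (adjusted p = 2.2e-12). The clotting protein gene Hml differed by -5.85 ± 0.21, peroxidasin (Pxn) by -4.53 ± 0.24, the scavenger receptor gene Sr-CI by -4.24 ± 0.27, the PDGF/VEGF receptor gene Pvr by -3.41 ± 0.24 and the phagocytic receptor gene crq by -1.35 ± 0.17. NimC1 was below the filter, and PGRP-LC had no probe set of its own and was not analysed here.

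The 10 largest differences were led by secreted and matrix proteins. ImpE2 (CG1934), first found as an ecdysone-inducible gene of imaginal discs, had log2 levels of 14.03, 13.56 and 14.04 in wing disc G2, against 3.33, 3.83 and 3.55 in S2 G2. The difference of 10.31 ± 0.18 (adjusted p = 4.2e-13) was the largest of any gene tested. The chitin-binding protein gene obst-A (CG17052) followed with 12.13, 12.23 and 12.08 in wing disc G2, against 2.48, 2.13 and 2.46 in S2 G2, a difference of 9.79 ± 0.11 (adjusted p = 3.0e-14). For both genes all 3 disc arrays were above 12 and all 3 S2 arrays below 4. The next were CG31997, an uncharacterised gene (9.09 ± 0.12), nw, the gene narrow that shapes the adult wing (8.9998 ± 0.15), the serpin gene Spn43Aa (8.59 ± 0.17) and wbl, which encodes the endoplasmic reticulum protein Windbeutel (8.37 ± 0.22). The chitin deacetylase gene Cda4 (8.25 ± 0.14), the tracheal chitin-binding protein gene Gasp (8.13 ± 0.16), the secreted pherokine gene Phk-3 (7.93 ± 0.18) and pio, a zona pellucida domain protein of the apical matrix (7.89 ± 0.22), completed the 10.

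The 10 largest differences in the other direction were led by immune genes. The gene edin (CG32185), named for its elevation during infection, had log2 levels of 5.04, 4.72 and 4.68 in wing disc G2, against 14.40, 14.35 and 14.39 in S2 G2. The difference was -9.56 ± 0.13 (adjusted p = 9.5e-14). DptB (CG10794), the antibacterial peptide Diptericin B, had 5.46, 5.45 and 5.55 in wing disc G2, against 14.51, 14.44 and 14.59 in S2 G2, a difference of -9.03 ± 0.09 (adjusted p = 2.1e-14). Both genes were close to 5 in wing disc G2 and over 14 on every S2 G2 array. The others were blanks, a double-stranded RNA binding protein known from testis (-9.01 ± 0.15), the peroxiredoxin gene Prx6c (-9.001 ± 0.17), the neuropeptide-like precursor gene Nplp2 (-8.77 ± 0.24), the cytochrome P450 genes Cyp6a20 (-8.55 ± 0.24) and Cyp6a8 (-7.90 ± 0.30), the antifungal and antibacterial peptide gene Mtk (-8.16 ± 0.26), and CG6231 (-8.19 ± 0.27) and CG32985 (-7.92 ± 0.14).

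**Figure D2:**
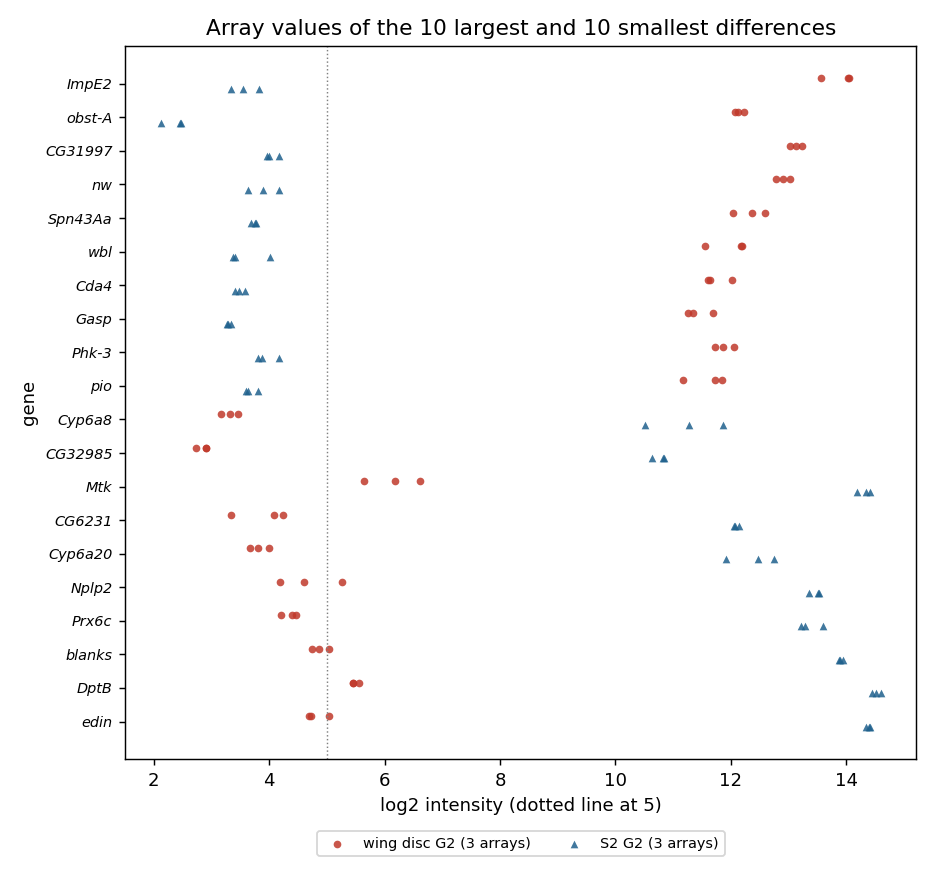
Log2 intensity on each of the 3 wing disc G2 arrays (circles) and each of the 3 S2 G2 arrays (triangles) for the 10 genes with the largest and the 10 with the smallest difference, with a dotted line at 5. In every gene the 2 sets of arrays are far apart, and the lower set lies near or under 5 except for Mtk in wing disc G2.

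Transcription factors that divide the disc into regions were mostly higher in wing disc G2. Of 37 tested genes (of 46 listed), 31 were higher, 5 were lower and 1 did not reach the threshold, with a median difference of 4.07, against -0.08 over all genes. A mean log2 level of at least 5 was reached by 36 of the 37 in wing disc G2 and by 11 in S2 G2. Factors bright only in the disc passed the filter through it and so had to differ. The count and the median follow in part from this. The zinc finger gene noc (CG4491), a repressor in leg and wing development, had 10.03, 10.09 and 10.04 in wing disc G2, against 2.68, 2.58 and 2.44 in S2 G2. The Hedgehog effector gene ci, the fly Gli protein, had 10.84, 10.81 and 10.77 in wing disc G2, against 3.43, 3.47 and 3.82 in S2 G2. Both were under 4 in S2 G2 with no overlap, at differences of 7.49 ± 0.12 (adjusted p = 2.5e-13) and 7.23 ± 0.11 (adjusted p = 1.3e-13).

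The members that are higher in the disc cover its main territories. For the Dpp target genes the differences were 6.10 ± 0.18 for bi (Optomotor-blind), 5.82 ± 0.14 for salm and 2.71 ± 0.11 for salr. The posterior selector genes en and inv differed by 5.66 ± 0.19 and 3.09 ± 0.18. In the notum, the part of the disc that forms the back of the thorax, the Iroquois genes caup, ara and mirr differed by 5.99 ± 0.12, 5.11 ± 0.12 and 1.85 ± 0.13, and eyg by 3.94 ± 0.09. Proximal and hinge genes included tsh at 1.85 ± 0.15, drm at 4.82 ± 0.19 and the T-box genes Doc1, Doc2 and Doc3 at 3.998 ± 0.17, 2.71 ± 0.14 and 3.24 ± 0.15. The one Hox gene that could be tested, Antp, the Hox gene of the second thoracic segment, differed by 3.98 ± 0.31 (adjusted p = 1.8e-07).

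A few regional factors were lower in wing disc G2. The GATA factor gene pnr, which patterns the notum, had log2 levels of 8.82, 8.66 and 8.72 in wing disc G2, against 10.96, 11.06 and 10.91 in S2 G2. Its cofactor gene ush, a Friend-of-GATA protein that also acts in haemocytes, had 7.66, 7.15 and 7.24 in wing disc G2, against 9.22, 9.41 and 9.39 in S2 G2. Both were expressed in the 2 cell types and higher on all 3 S2 arrays, at differences of -2.24 ± 0.14 (adjusted p = 2.9e-08) and -1.99 ± 0.15 (adjusted p = 1.6e-07). The homeobox gene ct, which marks the wing margin, was lower at a difference of -0.99 ± 0.19. Its signal was low in both cell types, with means of 4.71 in wing disc G2 and 5.69 in S2 G2. The gene bs, the fly serum response factor, differed by -0.42 ± 0.09. The zinc finger homeobox gene zfh2, a hinge factor, did not pass, at 0.18 ± 0.15 (adjusted p = 0.295).

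Most genes of the patterning pathways were higher in wing disc G2. Of 30 tested genes of Hedgehog, Dpp, Wingless and EGF receptor signalling (of 44 listed; the other 14 were not analysed here, having no probe set that names them alone), 25 were higher, 2 were lower and 3 did not reach the threshold, with a median difference of 1.90. Among the ligands, dpp (a BMP) differed by 2.17 ± 0.21, Wnt6 by 3.88 ± 0.15, the BMP gbb by 1.28 ± 0.07 and the EGF receptor ligand Krn by 2.07 ± 0.13. The other EGF receptor ligand, spi, was lower, at -0.67 ± 0.11.

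Receptors and extracellular binding proteins were prominent among the larger differences. Egfr (CG10079), the only EGF receptor of the fly, had log2 levels of 9.12, 8.75 and 8.82 in wing disc G2, against 3.94, 4.22 and 4.04 in S2 G2, a difference of 4.83 ± 0.14 (adjusted p = 2.2e-11). The secreted protein gene magu, known in the wing for extending the reach of BMP signalling, had 10.14, 10.58 and 10.34 in wing disc G2, against 5.53, 5.13 and 5.47 in S2 G2, a difference of 4.98 ± 0.15 (adjusted p = 3.6e-11). Every disc array was well above every S2 array for both. The glypican gene dlp differed by 4.40 ± 0.13, the Hedgehog co-receptor gene ihog by 3.64 ± 0.14, and the BMP receptor genes tkv and put by 3.28 ± 0.12 and 1.51 ± 0.07. Another probe set of tkv was called in the opposite direction. The Hedgehog receptor gene ptc was low in both cell types (5.55 ± 0.05 in wing disc G2 and 5.67 ± 0.11 in S2 G2, SD, n = 3 each) and did not pass (adjusted p = 0.437).

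Inhibitors of these pathways did not all go one way. Dad, the inhibitory SMAD that Dpp induces, differed by 3.04 ± 0.26, nkd, an inhibitor of Wingless signalling, by 3.59 ± 0.19, and aos, the secreted antagonist of the EGF receptor, by 3.35 ± 0.27. Axn and Notum, inhibitors in the Wingless pathway, did not pass, at 0.25 ± 0.14 (adjusted p = 0.118) and 0.13 ± 0.16 (adjusted p = 0.492). The intracellular EGF receptor pathway inhibitor sty (sprouty) went the other way, with 7.57, 7.64 and 7.61 in wing disc G2, against 10.46, 10.15 and 10.74 in S2 G2. It was lower on all 3 disc arrays, at a difference of -2.84 ± 0.15 (adjusted p = 5.2e-09).

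Notch pathway genes were higher in wing disc G2 with 1 exception. A mean log2 level of at least 5 was reached by all 17 tested in wing disc G2 and by 9 in S2 G2. As with the regional factors, those bright only in the disc had to differ. Of 17 tested genes (of 27 listed), 16 were higher, 0 were lower and 1 did not reach the threshold, with a median difference of 4.85. Target genes made up most of it. The Bearded family gene Tom (CG5185) had 11.29, 11.15 and 11.13 in wing disc G2, against 3.74, 4.02 and 3.63 in S2 G2, a difference of 7.39 ± 0.15 (adjusted p = 1.3e-12). In the Enhancer of split complex, the basic helix-loop-helix repressor gene E(spl)mdelta-HLH differed by 7.23 ± 0.34 and the Bearded family genes E(spl)m2-BFM, E(spl)malpha-BFM and E(spl)m6-BFM by 6.90 ± 0.38, 6.88 ± 0.36 and 5.99 ± 0.17. The glycosyltransferase gene fng, which changes the ligand preference of Notch, had 11.47, 11.47 and 11.33 in wing disc G2, against 4.51, 5.33 and 4.87 in S2 G2, with no overlap and a difference of 6.52 ± 0.22 (adjusted p = 8.6e-11). The core genes H, neur, mam and Psn were higher by small differences, of 0.57 to 0.62, and the protease gene kuz did not pass (-0.29 ± 0.18 (adjusted p = 0.159)).

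Proneural genes were measured by fewer probe sets. Of 16 listed, 7 were tested, and 6 of those were higher and 1 lower, while 8 were below the filter. All 7 had a mean log2 level of at least 5 in wing disc G2, and 3 did in S2 G2, so those bright only in the disc had to differ. The Achaete-Scute genes ac and sc, which give cells the competence to form bristles, had 8.18, 8.61 and 8.06 in wing disc G2, against 3.30, 3.002 and 2.99 in S2 G2, and 8.41, 8.70 and 8.42 in wing disc G2, against 3.77, 3.54 and 3.72 in S2 G2. Both were near background in S2 G2, and their differences were 5.18 ± 0.14 (adjusted p = 1.2e-11) and 4.84 ± 0.16 (adjusted p = 4.9e-11). Their partner gene da differed by 1.49 ± 0.13 and their antagonist gene emc by 2.31 ± 0.24. The lower gene was insc, at -0.62 ± 0.21 (adjusted p = 0.018), with 5.71, 4.62 and 5.17 in wing disc G2, against 5.71, 5.81 and 5.86 in S2 G2. Its groups overlapped, and the call was lost without S2 G2 replicate 6 or wing disc G2 replicate 3.

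Junction genes divided by type. Septate junctions form the diffusion barrier of fly epithelia, and of 19 tested genes of this list (of 23 listed), 15 were higher, 3 were lower and 1 did not reach the threshold, with a median difference of 2.64. The claudin gene sinu (CG10624) had 12.12, 12.12 and 12.10 in wing disc G2, against 7.11, 6.81 and 6.40 in S2 G2, a difference of 5.34 ± 0.15 (adjusted p = 1.7e-11). The neurexin gene Nrx-IV differed by 2.61 ± 0.11, the cholinesterase-like gene Gli (gliotactin) by 4.56 ± 0.34, the L1-type adhesion gene Nrg by 4.18 ± 0.18, the transferrin-like gene Tsf2 by 3.87 ± 0.10 and bou, a Ly6 protein that septate junctions require, by 4.58 ± 0.10. Many were also well above 5 in S2 G2, where the mean of 18 of the 19 was 5 or more. The lower members were Ssk (-1.42 ± 0.13) and Tsp2A (-1.10 ± 0.12), which act in the smooth septate junctions of the gut, and the sodium pump subunit gene nrv1 (-0.92 ± 0.11).

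Adherens junction and polarity genes were balanced, with shares near the 35.9% higher and 42.4% lower over all genes. Of 21 tested genes (of 22 listed), 9 were higher, 9 were lower and 3 did not reach the threshold, and the median difference was -0.03 as deposited, -0.15 after subtracting array medians and 0.07 after cyclic loess. The apical determinant gene crb had 10.22, 9.84 and 9.96 in wing disc G2, against 4.07, 4.34 and 4.57 in S2 G2, with no overlap and a difference of 5.68 ± 0.22 (adjusted p = 2.9e-10), and its partner gene sdt differed by 2.23 ± 0.22. The adhesion gene ed, the ZO-1 gene pyd and shg were the others that were at least 2-fold higher, at 4.06 ± 0.15, 3.26 ± 0.13 and 3.21 ± 0.15. The basolateral genes scrib (-2.87 ± 0.22) and dlg1 (-1.26 ± 0.10) were lower through their brightest probe sets, but for each of them another probe set of the gene was called in the opposite direction. The par genes baz and par-6 were lower by -0.48 and -0.46, while aPKC was higher by 0.41 and the tumour suppressor gene l(2)gl did not pass (0.11 ± 0.12 (adjusted p = 0.411)).

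Planar polarity genes, which align cells within the plane of the epithelium, were higher in wing disc G2. Of 10 tested (of 15 listed), 9 were higher, 0 were lower and 1 did not reach the threshold, with a median of 3.48. All 10 had a mean log2 level of at least 5 in wing disc G2, and 4 did in S2 G2, so those bright only in the disc had to differ. The protocadherin gene ds (CG17941) had 9.17, 9.33 and 9.19 in wing disc G2, against 3.02, 2.88 and 3.27 in S2 G2, a difference of 6.17 ± 0.14 (adjusted p = 3.4e-12). The Golgi kinase gene fj, which modifies Ds and Fat, differed by 5.24 ± 0.10 and the cadherin gene stan (Flamingo) by 5.01 ± 0.11. All 3 had S2 means under 4. In the Hippo growth control pathway, which these cadherins feed into, all 13 listed genes were tested. Of these, 6 were higher, 4 were lower and 3 did not reach the threshold, where 35.9% of all genes were higher and 42.4% lower. The upstream genes ex and sav were higher at 1.41 ± 0.16 and 1.51 ± 0.12, and yki, the growth-promoting coactivator, was lower at -0.71 ± 0.11.

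The genes of the apical matrix split into chitin and cuticle genes that were higher and imaginal disc growth factors that were lower. Of 25 tested genes (of 35 listed, with 8 below the filter), 19 were higher, 5 were lower and 1 did not reach the threshold. The median difference was 4.77. A mean log2 level of at least 5 was reached by 24 of the 25 in wing disc G2 and by 8 in S2 G2. Members bright only in the disc passed the filter through it and so had to differ. The chitin synthase gene kkv (CG2666) had 10.30, 10.21 and 10.09 in wing disc G2, against 3.80, 3.87 and 3.61 in S2 G2, a difference of 6.44 ± 0.14 (adjusted p = 2.1e-12). Its helper gene knk differed by 6.08 ± 0.11, the chitin deacetylase genes serp and verm by 6.34 ± 0.22 and 5.58 ± 0.10, and the zona pellucida domain genes neo and qsm by 7.43 ± 0.16 and 7.42 ± 0.18.

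Imaginal disc growth factors are secreted chitinase-like proteins, purified first from the medium of cultured imaginal disc cells. Idgf2 (CG4475) had log2 levels of 4.23, 4.42 and 4.66 in wing disc G2, against 12.07, 12.36 and 12.15 in S2 G2. Idgf3 had 5.81, 5.45 and 5.18 in wing disc G2, against 12.29, 12.40 and 12.17 in S2 G2. Neither overlapped, and the differences were -7.76 ± 0.14 (adjusted p = 4.2e-13) and -6.81 ± 0.15 (adjusted p = 2.0e-12). Idgf1 and Idgf6 were lower as well, at -5.96 ± 0.14 and -5.23 ± 0.24, whereas Idgf4 was higher in wing disc G2, at 4.77 ± 0.19. The fifth lower member was mmy, which makes the sugar donor for chitin (-1.11 ± 0.10).

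Markers of other cells that a dissected disc can hold were looked at as lists. Of 6 tested genes of adult muscle precursors (of 13 listed), 5 were higher in wing disc G2. All 6 had a mean log2 level of at least 5 there, and 1 did in S2 G2, so those bright only in the disc had to differ. Him (CG15064), an inhibitor of muscle differentiation, had 11.90, 10.55 and 11.89 in wing disc G2, against 4.42, 3.85 and 3.74 in S2 G2, and the mesodermal factor gene twi had 9.52, 8.85 and 9.38 in wing disc G2, against 3.70, 3.66 and 3.64 in S2 G2. Both were near background in S2 G2, at differences of 7.45 ± 0.32 (adjusted p = 6.2e-10) and 5.58 ± 0.16 (adjusted p = 2.5e-11). The FGF receptor gene htl, the cell fusion gene kirre and the actin gene Act87E differed by 3.99 ± 0.20, 3.61 ± 0.16 and 2.997 ± 0.13. The exception was zfh1, a factor that haemocytes also express, with 6.51, 5.55 and 5.82 in wing disc G2, against 9.73, 9.92 and 10.47 in S2 G2 and a difference of -4.08 ± 0.28 (adjusted p = 4.5e-08). The share of myoblasts in the wing disc G2 samples was not measured, and its part in the differences of other genes was not tested.

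Of 6 tested tracheal genes (of 10 listed), 5 were higher, but 3 of them, Gasp, serp and verm, also stand in the apical matrix list. The tracheal receptor gene btl and the factor genes rib and peb were below the filter. The POU factor gene vvl, which is also expressed in disc epithelium, differed by 2.34 ± 0.19, and bnl, the FGF that guides tracheal growth, was lower at -3.33 ± 0.30. Of 19 listed neuronal and glial genes, 12 were below the filter. The neuronal gene elav had 6.54, 6.59 and 6.34 in wing disc G2, against 4.70, 4.89 and 5.40 in S2 G2 and was higher, while the glial genes moody and loco were lower, at -4.93 ± 0.18 and -1.79 ± 0.14. Of 14 listed fat body genes, 9 were below the filter, including the storage protein gene Lsp2, and the only one tested was the odorant-binding protein gene Obp56a, with 6.43, 6.29 and 6.09 in wing disc G2, against 3.41, 3.17 and 3.26 in S2 G2.

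Haemocyte genes were on balance lower in wing disc G2, with exceptions. Of 6 tested transcription factors (of 10 listed), 1 was higher, 4 were lower and 1 did not reach the threshold. The higher one was kn (Collier), which also patterns the central wing, at 4.69 ± 0.18 (adjusted p = 2.0e-10), and jumu did not pass (-0.16 ± 0.23 (adjusted p = 0.545)). Of 21 tested receptors and secreted proteins (of 37 listed; 14 were below the filter), 5 were higher, 14 were lower and 2 did not reach the threshold, with a median difference of -1.35. The glutactin gene Glt (CG9280) had 6.25, 4.63 and 5.20 in wing disc G2, against 11.50, 11.51 and 11.54 in S2 G2, and Hml had 5.46, 5.14 and 5.49 in wing disc G2, against 10.96, 11.44 and 11.24 in S2 G2. All disc arrays of both genes lay under all S2 arrays, at differences of -6.16 ± 0.32 (adjusted p = 4.2e-09) and -5.85 ± 0.21 (adjusted p = 1.5e-10). The prophenoloxidase gene PPO3 differed by -4.36 ± 0.13, and the phagocytic receptor genes eater and NimC4 by -4.15 ± 0.27 and -2.87 ± 0.21. The higher members included the matrix protein gene Ppn (papilin, 5.28 ± 0.21), the ferritin light chain gene Fer2LCH (4.88 ± 0.11) and the thioester protein gene Tep3 (3.40 ± 0.13).

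The genes of the 2 ferritin subunits went opposite ways. The light chain gene Fer2LCH had 11.48, 11.43 and 11.43 in wing disc G2, against 6.45, 6.59 and 6.67 in S2 G2, while the heavy chain gene Fer1HCH had 12.55, 12.61 and 12.46 in wing disc G2, against 13.28, 13.67 and 13.65 in S2 G2. The light chain was higher on every disc array and the heavy chain lower on every disc array, at 4.88 ± 0.11 (adjusted p = 1.9e-12) and -0.99 ± 0.11 (adjusted p = 3.5e-06).

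Basement membrane and integrin genes went both ways, with more of them lower than higher in wing disc G2. Of 24 tested genes (of 28 listed), 9 were higher, 14 were lower and 1 did not reach the threshold, with a median of -0.90. The collagen IV gene Col4a1 (CG4145) had 7.76, 8.37 and 7.82 in wing disc G2, against 12.32, 12.52 and 12.34 in S2 G2, and its partner chain gene vkg had 7.73, 8.15 and 7.72 in wing disc G2, against 11.91, 11.92 and 11.65 in S2 G2. The groups did not overlap, at differences of -4.41 ± 0.23 (adjusted p = 4.4e-09) and -3.96 ± 0.22 (adjusted p = 7.3e-09). The laminin genes LanA, LanB1 and LanB2 differed by -0.98 ± 0.13, -1.18 ± 0.16 and -1.02 ± 0.13, the collagen-binding gene SPARC by -1.87 ± 0.12 and tiggrin (Tig), an integrin ligand, by -4.55 ± 0.18. The perlecan gene trol was higher at 1.71 ± 0.21, as were the multiplexin gene Mp (3.23 ± 0.30), the metalloprotease inhibitor gene Timp (2.37 ± 0.17) and the integrin alpha genes mew (1.25 ± 0.19) and if (1.51 ± 0.20), while the integrin beta gene mys was lower (-1.03 ± 0.11).

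Transcripts of PDGF/VEGF receptor and JAK/STAT pathway genes were mostly lower in wing disc G2. Of 9 tested genes (of 15 listed), 1 was higher, 7 were lower and 1 did not reach the threshold. The receptor gene Pvr had 7.84, 7.33 and 7.71 in wing disc G2, against 10.57, 11.19 and 11.35 in S2 G2, and its ligand gene Pvf2 had 7.49, 6.34 and 7.12 in wing disc G2, against 9.95, 9.72 and 9.55 in S2 G2. Both were lower on all disc arrays, at -3.41 ± 0.24 (adjusted p = 6.9e-08) and -2.75 ± 0.24 (adjusted p = 5.4e-07). The ligand gene Pvf1 differed by -2.41 ± 0.36 and the transcription factor gene Stat92E by -0.70 ± 0.13. The other lower genes were et (-1.75 ± 0.20), Socs44A (-1.06 ± 0.10) and Su(var)2-10 (-0.42 ± 0.15). Only transcript levels were measured, and the activity of the pathways was not tested. The JAK/STAT receptor gene dome was the one member that was higher, at 1.72 ± 0.14 (adjusted p = 2.1e-07).

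Genes of the Toll and Imd pathways, which switch on antimicrobial peptides through NF-kappaB factors, were mostly lower in wing disc G2, at several levels of the pathways. Of 28 tested genes (of 37 listed), 4 were higher, 19 were lower and 5 did not reach the threshold, with a median of -0.94. Among recognition proteins, PGRP-LF (CG4437), which restrains the Imd pathway, had 4.45, 4.35 and 4.30 in wing disc G2, against 10.11, 10.32 and 10.06 in S2 G2, a difference of -5.80 ± 0.16 (adjusted p = 1.3e-11), and PGRP-LB, an amidase that degrades peptidoglycan, differed by -5.31 ± 0.16. The Toll ligand gene spz had 5.44, 4.87 and 5.01 in wing disc G2, against 10.57, 10.65 and 10.46 in S2 G2, a difference of -5.45 ± 0.15 (adjusted p = 1.2e-11). The pathway inhibitor gene pirk differed by -5.61 ± 0.21. These genes had means near 5 or under it in wing disc G2 and at 9 or above in S2 G2.

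Adaptor, kinase and NF-kappaB genes were among the lower members, but not all of them passed. The adaptor genes Myd88 and tub of the Toll pathway did not, at -0.38 ± 0.17 (adjusted p = 0.055) and -0.01 ± 0.09 (adjusted p = 0.925). The adaptor genes imd and Fadd differed by -2.36 ± 0.15 and -2.37 ± 0.12, the IKK genes key and IKKbeta by -1.80 ± 0.15 and -1.55 ± 0.10, and the NF-kappaB genes Rel and dl by -2.50 ± 0.12 and -2.07 ± 0.14. The third NF-kappaB gene, Dif, was at 6.74 ± 0.15 in wing disc G2 and 6.93 ± 0.06 in S2 G2 (SD, n = 3 each) and did not pass (adjusted p = 0.217). The higher members were the spätzle-processing protease gene SPE (3.72 ± 0.12), the intracellular receptor gene PGRP-LE (3.25 ± 0.18), the fungal recognition gene GNBP3 (2.02 ± 0.10) and the ubiquitin enzyme gene ben (0.38 ± 0.14).

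Antimicrobial peptide genes gave the lowest median of all lists. Of 27 listed, 6 had a probe set that was tested, and of those 5 were lower and 1 higher, with a median difference of -6.45, while 15 were not analysed here, having no probe set that names them alone. Mtk (CG8175) had 6.61, 5.65 and 6.18 in wing disc G2, against 14.34, 14.18 and 14.41 in S2 G2. The attacin gene AttD had 7.50, 5.66 and 7.11 in wing disc G2, against 14.34, 14.33 and 14.34 in S2 G2. Drs, the antifungal peptide Drosomycin, had 9.02, 7.61 and 8.48 in wing disc G2, against 13.71, 13.82 and 13.54 in S2 G2. All 3 were above 13 on every S2 array and at most moderately bright on the disc arrays, at differences of -8.16 ± 0.26 (adjusted p = 4.7e-11), -7.58 ± 0.36 (adjusted p = 1.7e-09) and -5.32 ± 0.29 (adjusted p = 7.0e-09). The cecropin gene CecB differed by -4.83 ± 0.49, and the defensin gene Def, low in both, was higher in wing disc G2 at 0.78 ± 0.16 (adjusted p = 0.00072).

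**Figure D3:**
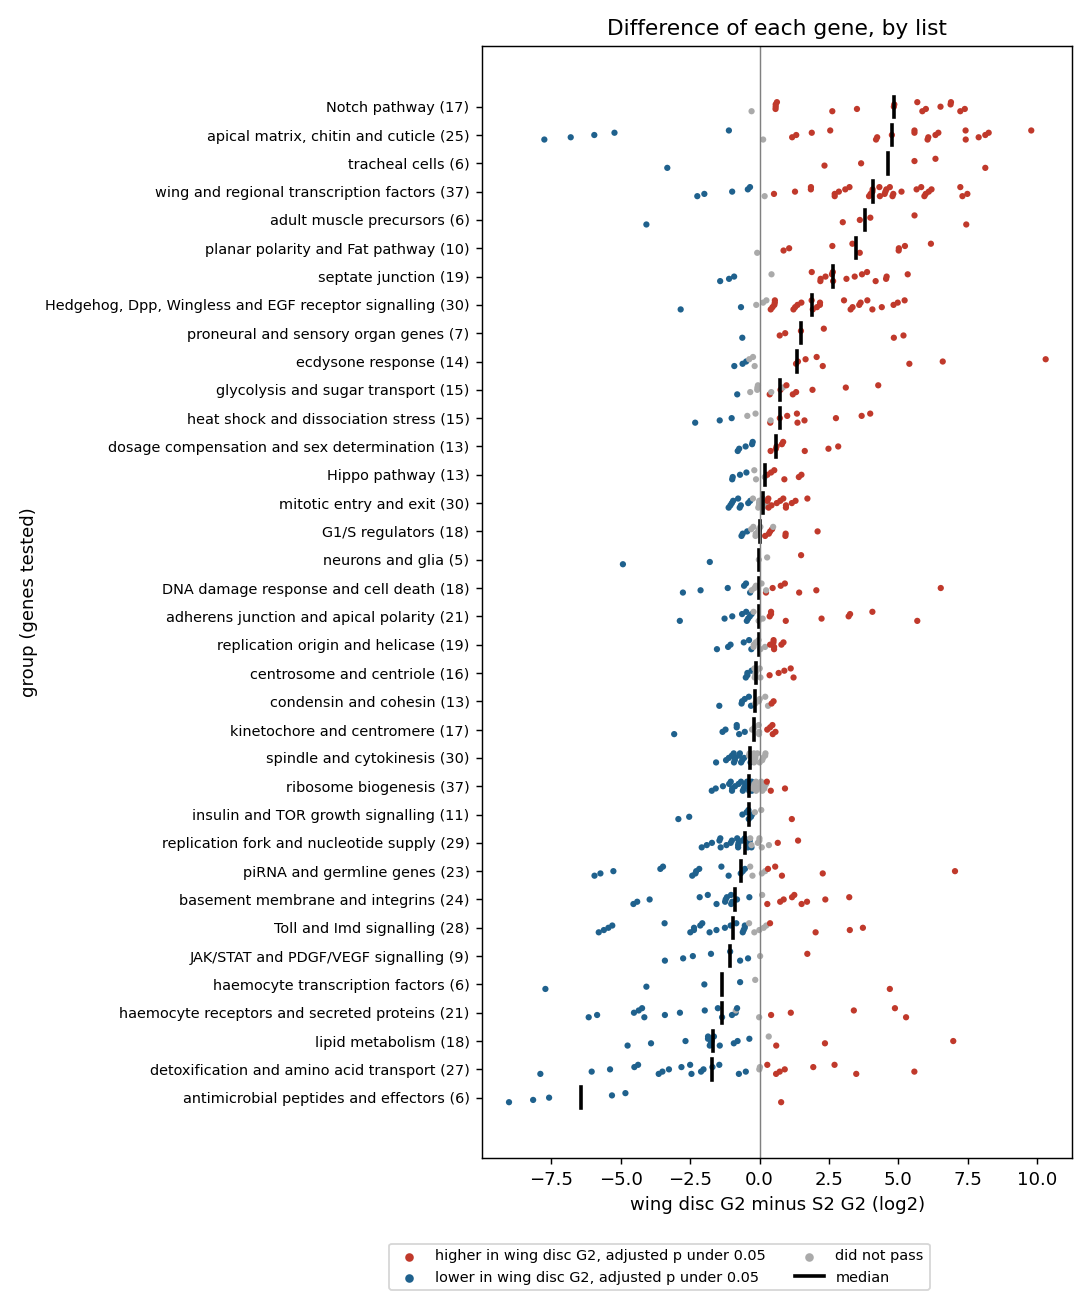
Difference of each tested gene, wing disc G2 minus S2 G2 on the log2 scale, for 36 gene lists ordered by their median (black bar), with the number of genes tested in brackets and colour for the call. The medians run from 4.85 for the Notch pathway to -6.45 for antimicrobial peptides, and the cell cycle lists lie close to 0.

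Metabolic genes differed by class. Lipid genes were mostly lower in wing disc G2: of 18 tested (of 24 listed), 3 were higher, 14 were lower and 1 did not reach the threshold, with a median of -1.68. The acetyl-CoA synthetase gene AcCoAS (CG9390) had 5.56, 5.45 and 5.31 in wing disc G2, against 10.19, 10.41 and 9.997 in S2 G2, a difference of -4.76 ± 0.19 (adjusted p = 3.0e-10). The fatty acid synthase gene FASN1 differed by -3.91 ± 0.16, the acetyl-CoA carboxylase gene ACC by -1.65 ± 0.14, and their regulator gene SREBP by -1.73 ± 0.13. Lsd-2, a perilipin that coats lipid droplets, went the other way, with 10.61, 10.56 and 10.86 in wing disc G2, against 3.61, 3.98 and 3.50 in S2 G2 and a difference of 6.98 ± 0.15 (adjusted p = 1.7e-12), as did the lipoprotein receptor gene LpR1 (2.36 ± 0.21).

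Glycolytic genes were more often higher. Of 15 tested genes (of 20 listed), 8 were higher, 1 was lower and 6 did not reach the threshold. Pfk (CG4001), the committed step of glycolysis, had 9.95, 10.13 and 9.95 in wing disc G2, against 6.57, 7.03 and 7.10 in S2 G2, a difference of 3.11 ± 0.19 (adjusted p = 1.7e-08). The triose phosphate isomerase gene Tpi, phosphoglycerate kinase gene Pgk and enolase gene Eno differed by 1.91 ± 0.09, 1.32 ± 0.09 and 1.20 ± 0.08, and fbp, whose enzyme runs the opposite step to Pfk, by 4.27 ± 0.15. Gapdh1 was higher at 0.36 ± 0.08, while Ald1 and Pglym78 did not pass (-0.09 and -0.08). The lower gene was Pepck1 of gluconeogenesis, at -0.81 ± 0.25.

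Genes listed for detoxification and amino acid transport spread widely in both directions. The list holds transporters as well as detoxification enzymes, and its counts and median do not separate them. Of 27 tested (of 38 listed), 8 were higher, 17 were lower and 2 did not reach the threshold, with a median of -1.70. The glutathione S-transferase genes GstE6 and GstE9 had differences of -6.05 ± 0.10 and -5.39 ± 0.17. In contrast GstS1 (CG8938) had 12.12, 12.13 and 12.31 in wing disc G2, against 6.78, 6.54 and 6.51 in S2 G2, a difference of 5.58 ± 0.10 (adjusted p = 5.3e-13), and GstE1 differed by 3.48 ± 0.25. The potassium chloride cotransporter gene kcc was lower at -4.38 ± 0.14 and the organic anion transporter gene Oatp30B higher at 2.70 ± 0.15.

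Whole gene families, taken by their names after the values had been seen, gave a second view of the same contrast. Of 24 cytochrome P450 genes tested, 4 were higher, 19 lower and 1 did not reach the threshold, with a median difference of -2.84. Glutathione S-transferases were even, with 13 higher and 13 lower of 28, and UDP-glycosyltransferases had 4 higher and 5 lower of 9. Cuticular protein genes of the Cpr family were higher for 14 of 18 and lower for 1. Vacuolar ATPase subunits, which acidify lysosomes, were lower for 14 of 16, with a median of -1.16, and higher only for the accessory gene VhaAC45RP (2.41).

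Most mitochondrial gene families had more lower than higher members, with ATP synthase as the exception. Of 69 mitochondrial ribosomal protein genes, 51 were lower (15 of them at least 2-fold) and 2 higher, with a median difference of -0.65. Their differences ran from -1.87 for mRpL10 to 0.58, and those of complex I subunits from -2.10 to 0.87. Complex I subunits were lower for 18 of 27 and higher for 1, and all 7 cytochrome c oxidase subunits were lower (6 of them after cyclic loess), from -0.88 for COX5A to -0.17 for COX4. ATP synthase subunits were even (3 higher, 3 lower, 5 not passing). Cytosolic ribosomal proteins had 13 higher and 6 lower of 38, but 32 of the 38 had means of 12 or more, close to the top of the array's range, and the split became 5 higher and 9 lower after array medians were subtracted and 9 and 7 after cyclic loess. The largest of these differences belonged to the copies RpS10a (-1.77) and RpS19b (-1.73), which are known for germline expression.

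Protein turnover and translation factors leaned to the disc side. Of 29 proteasome subunit genes, 17 were higher and 4 lower, with a median of 0.35, and of 32 translation initiation factor genes 21 were higher and 6 lower, with a median of 0.37. The extremes among them were paralogues of narrow expression, such as eIF4E6 at -2.72 and Rpt3R at -2.17.

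**Figure D4:**
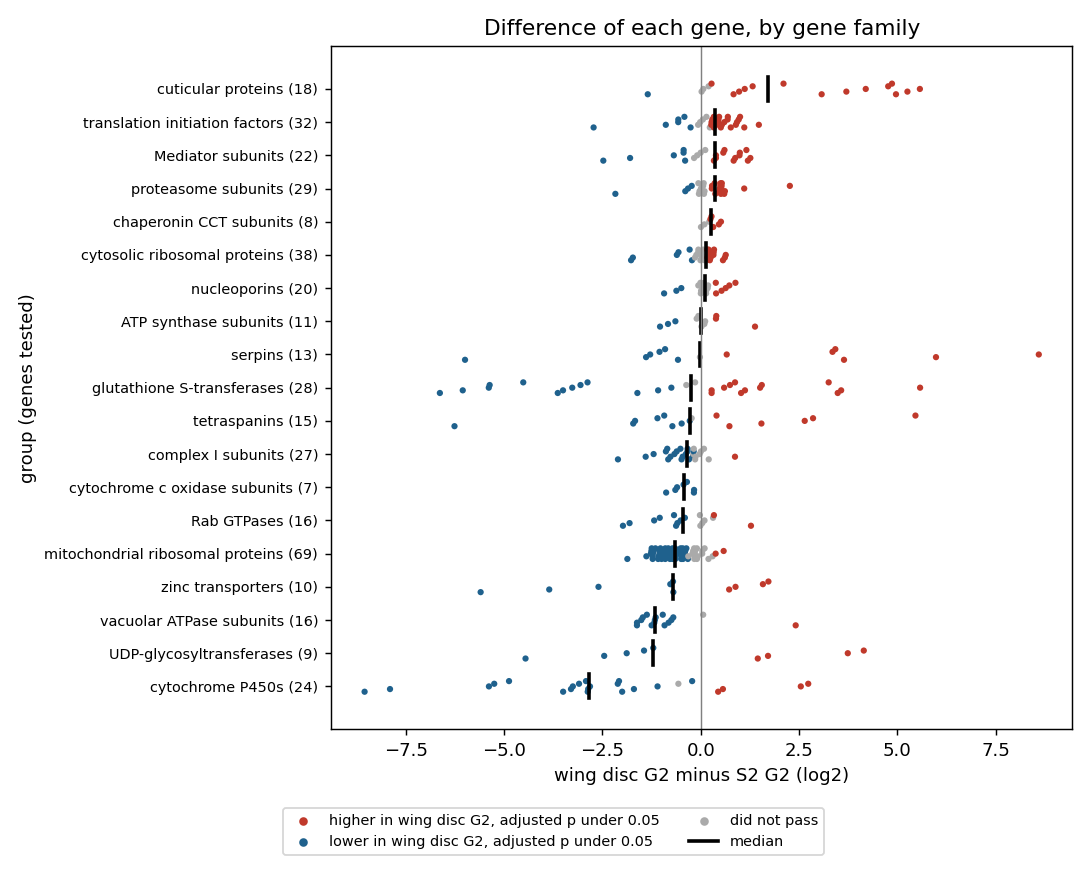
Difference of each tested gene, wing disc G2 minus S2 G2 on the log2 scale, for 19 gene families ordered by their median (black bar), with the number of genes tested in brackets. Cuticular proteins have the highest median at 1.71 and cytochrome P450s the lowest at -2.84. Mitochondrial ribosomal proteins run from -1.87 to 0.58, with a median of -0.65.

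Ribosome biogenesis genes that differed were mostly lower in wing disc G2. Of 37 tested ribosome biogenesis genes (of 38 listed), 3 were higher, 21 were lower and 13 did not reach the threshold, with a median of -0.36. The nucleolar gene Surf6 (CG4510) had 8.46, 8.53 and 8.43 in wing disc G2, against 10.17, 10.18 and 10.24 in S2 G2, a difference of -1.72 ± 0.09 (adjusted p = 5.2e-09), and vito and ppan differed by -1.58 ± 0.11 and -1.32 ± 0.13. Of the 3 higher members, Rrp1 encodes an endonuclease of DNA repair and Mat1 a subunit of the factor TFIIH. Of 11 tested insulin and TOR genes (of 20 listed), 1 was higher, 8 were lower and 2 did not reach the threshold. The count of lower genes was 4 without wing disc G2 replicate 4 and 5 without S2 G2 replicate 5 or 6, where 42.4% of all genes were lower. ImpL2 (CG15009), a secreted binding protein that holds insulin-like peptides back, had 10.28, 9.21 and 9.62 in wing disc G2, against 12.71, 12.73 and 12.46 in S2 G2, and the kinase gene S6k had 7.94, 7.81 and 7.54 in wing disc G2, against 10.14, 10.23 and 10.52 in S2 G2. Both were lower on every disc array, at -2.93 ± 0.28 (adjusted p = 1.1e-06) and -2.54 ± 0.21 (adjusted p = 2.8e-07). The hypoxia factor gene sima was higher, at 1.16 ± 0.11.

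Ecdysone response genes were higher where they changed by 2-fold. Ecdysone is the steroid that starts metamorphosis, and wandering larvae are close to that pulse. Of 14 tested genes (of 27 listed; 9 were below the filter), 8 were higher, 3 were lower and 3 did not reach the threshold. Beyond ImpE2, the transcription factor gene br (CG11491), which marks the larval to pupal change, had 10.82, 10.77 and 10.92 in wing disc G2, against 5.07, 5.37 and 5.89 in S2 G2, a difference of 5.40 ± 0.21 (adjusted p = 2.4e-10). ImpE1, a disc protein of the lipoprotein receptor type, differed by 6.60 ± 0.49 and the nuclear receptor gene Hr39 by 2.28 ± 0.14. The nuclear receptor genes ftz-f1 and usp were lower, at -0.91 ± 0.36 and -0.48 ± 0.10.

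Heat shock and stress genes were more often higher in wing disc G2. Of 15 tested (of 24 listed), 9 were higher, 3 were lower and 3 did not reach the threshold. The small heat shock protein genes Hsp27 and Hsp26 had differences of 3.68 ± 0.13 and 2.75 ± 0.31, the first with log2 levels of 13.66, 13.36 and 13.73 in wing disc G2, against 10.15, 9.90 and 9.68 in S2 G2. The co-chaperone gene stv differed by 3.99 ± 0.16 and Hsp68 by 1.62 ± 0.31. The Jun kinase pathway genes kay, the fly Fos, and puc, a phosphatase that Jun kinase induces, were lower, at -2.32 ± 0.17 and -1.01 ± 0.31.

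Germline and piRNA genes were mostly lower in wing disc G2. Of 23 tested (of 32 listed), 5 were higher, 14 were lower and 4 did not reach the threshold, with a median of -0.68. Tejas (tej, CG8589), a Tudor domain protein of the piRNA pathway, had 3.29, 3.25 and 3.10 in wing disc G2, against 9.01, 9.16 and 9.32 in S2 G2. The Piwi family gene aub had 4.11, 4.80 and 4.35 in wing disc G2, against 10.18, 10.15 and 10.14 in S2 G2. Both were bright in the S2 line and near background in the disc, at differences of -5.95 ± 0.14 (adjusted p = 4.6e-12) and -5.74 ± 0.18 (adjusted p = 3.4e-11). The germline genes mael, rhi and bam differed by -5.27 ± 0.17, -3.58 ± 0.13 and -3.48 ± 0.15. The exceptions were ovo (CG6824), which also acts in epidermis, with 10.12, 9.92 and 10.17 in wing disc G2, against 3.13, 2.92 and 3.05 in S2 G2 and a difference of 7.04 ± 0.10 (adjusted p = 1.2e-13), and loqs, a partner of Dicer, at 2.28 ± 0.12.

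All 13 tested genes of sex determination and dosage compensation (of 15 listed) differed, 8 higher and 5 lower, with 3 lower without wing disc G2 replicate 4. Over all genes 78.3% passed, with 35.9% higher and 42.4% lower. Sxl (CG43770), the switch that is on in females, had 8.46, 8.18 and 8.24 in wing disc G2, against 5.64, 5.84 and 5.96 in S2 G2, a difference of 2.48 ± 0.20 (adjusted p = 2.1e-07), and its target tra differed by 2.83 ± 0.14. The sex of the larvae is not given in the labels used here. The male-specific lethal genes msl-2, msl-1 and mle, whose complex acts on the male X chromosome, and mof, its acetyltransferase, were lower, at -0.74 ± 0.21, -0.50 ± 0.15, -0.27 ± 0.11 and -0.79 ± 0.12, while msl-3 was higher at 0.40 ± 0.10. The output factor gene dsx differed by 1.63 ± 0.19.

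Cell cycle lists had medians closer to 0 than most tissue lists. Their counts, here and below, stand against 35.9% higher and 42.4% lower over all genes, and several lie near those shares. For mitotic entry and exit, of 30 tested genes (of 40 listed), 12 were higher, 9 were lower and 9 did not reach the threshold, and the median difference was 0.11 as deposited, -0.01 after subtracting array medians and 0.22 after cyclic loess. The pseudokinase gene trbl, which promotes turnover of the Cdc25 phosphatase String, was highest at 1.72 ± 0.11 (adjusted p = 4.0e-08), with 9.04, 8.71 and 8.88 in wing disc G2, against 7.07, 7.18 and 7.21 in S2 G2. The anaphase-promoting complex inhibitor gene Rca1 and the ubiquitin enzyme gene vih differed by 1.29 ± 0.10 and 1.16 ± 0.07. The separase gene Sse and its partner gene thr were lower at -0.72 ± 0.11 and -1.12 ± 0.15, as was the checkpoint kinase gene Mps1 (-1.001 ± 0.10). CycB did not pass, with log2 levels of 10.69, 10.66 and 10.65 in wing disc G2, against 10.09, 10.52 and 10.57 in S2 G2 (adjusted p = 0.122).

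Spindle genes had no member that was higher as deposited, and 2 after cyclic loess. Of 30 tested (of 40 listed), 0 were higher, 15 were lower and 15 did not reach the threshold, with a median of -0.34. The augmin gene dgt4 differed by -1.57 ± 0.15, the spindle orientation gene mud by -1.21 ± 0.18 and the minus-end kinesin gene ncd by -1.11 ± 0.15. The signal of mud was low, with means of 4.69 in wing disc G2 and 5.90 in S2 G2. With every value raised to a floor of 5 its difference was -0.90. Of 17 kinetochore and centromere genes (of 19 listed), 5 were higher, 7 were lower and 5 did not reach the threshold. The kinetochore gene Nnf1b (CG31658) stood apart, with 4.96, 5.50 and 5.30 in wing disc G2, against 8.38, 8.33 and 8.29 in S2 G2 and a difference of -3.08 ± 0.13 (adjusted p = 5.5e-10), while its paralogue Nnf1a was higher by 0.28. The centromeric histone gene cid was lower at -1.23 ± 0.16. In condensin and cohesin, 2 of 13 were higher (1 without S2 G2 replicate 4) and 6 lower, and in the centrosome list 5 of 16 were higher and 4 lower, with SAK, the kinase that starts centriole duplication, at 1.22 ± 0.22.

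Among G1/S regulators, 7 of 18 tested were higher (4 without S2 G2 replicate 4 or after array medians were subtracted) and 3 lower, and the median was 0.00 as deposited, -0.12 after subtracting array medians and 0.10 after cyclic loess. The cyclin A inhibitor gene rux (CG4336) had 8.47, 8.29 and 8.48 in wing disc G2, against 6.36, 6.15 and 6.46 in S2 G2, a difference of 2.09 ± 0.11 (adjusted p = 4.9e-09). Cdk2 and Cdk4 differed by 0.93 ± 0.10 and 0.94 ± 0.08, and CycE was lower at -0.45 ± 0.15. In the list for DNA damage and cell death, 7 of 18 were higher and 6 lower, where 35.9% of all genes were higher and 42.4% lower. The TNF receptor gene grnd (CG10176) had 9.91, 9.61 and 9.66 in wing disc G2, against 2.94, 3.46 and 3.20 in S2 G2, a difference of 6.53 ± 0.13 (adjusted p = 1.1e-12), while the gene of its ligand, egr (Eiger), was lower at -2.76 ± 0.27. The caspase gene Dcp-1 and the checkpoint kinase gene grp differed by 2.04 ± 0.09 and 1.43 ± 0.10, and the end-joining genes Irbp and Ku80, which encode the Ku proteins, were lower at -2.13 ± 0.18 and -1.15 ± 0.16.

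Replication genes were lower or even in the 4C gate. Of 29 tested genes for fork proteins and nucleotide supply (of 33 listed), 2 were higher, 20 were lower and 7 did not reach the threshold, with a median of -0.54. PolA1 (CG6349), the catalytic subunit of DNA polymerase alpha, had 6.92, 6.98 and 6.77 in wing disc G2, against 8.64, 9.10 and 9.18 in S2 G2, a difference of -2.09 ± 0.13 (adjusted p = 2.7e-08). The deoxynucleoside kinase gene dnk and the thymidylate synthase gene Ts differed by -1.72 ± 0.09 and -1.45 ± 0.09, and dUTPase was higher at 1.39 ± 0.08. Of 19 tested origin and helicase genes (of 22 listed), 7 were higher, 6 were lower and 6 did not reach the threshold, and the median was -0.04 as deposited, -0.16 after subtracting array medians and 0.07 after cyclic loess. The helicase genes Mcm2, Mcm3, Mcm5 and Mcm6 were higher, from 0.38 to 0.79, and Mcm10, Psf1 and dup (Cdt1, which loads the helicase) were lower, at -1.54 ± 0.14, -1.14 ± 0.13 and -1.05 ± 0.17.

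The last question was whether a difference in the 4C gate was other than the one in the 2C gate. The same fit gave the G2 difference minus the G1 difference, which is positive where wing disc G2 stood higher against S2 G2 than wing disc G1 stood against S2 G1. Of 8317 probe sets, 424 (5.1%) passed, 185 (2.22%) above 0 and 239 (2.87%) below 0. By gene, 364 of 6760 (5.38%) passed, 155 (2.29%) above 0 and 209 (3.09%) below, and the gap between the cell types was wider in G2 for 244 of them and narrower for 120. Of the 2596 genes called at least 2-fold in G2, 246 passed this test. Arrays of the same number in the 2 gates of a cell type deviated together, and with the number as a fixed block 928 probe sets passed, 471 above 0 and 457 below. Leaving out 1 array gave 273 to 586 probe sets. The count was lowest without wing disc G2 replicate 4 (273), and it also fell by more than 1.5 times without S2 G1 replicate 4 (275), wing disc G1 replicate 4 (278) and S2 G2 replicate 5 (282).

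Replication genes passed more often than genes in general, of which 3.09% passed below 0. Of 19 origin and helicase genes, 14 passed, all below 0 (16 with the block), and the list's median difference was -0.04 in G2 and 1.33 in G1. Of 29 fork and nucleotide genes, 20 passed, all below 0 (22 with the block), with medians of -0.54 in G2 and 0.22 in G1. Orc1 (CG10667), the largest subunit of the origin recognition complex, had log2 levels of 6.45, 6.09 and 6.02 in wing disc G2, against 6.59, 6.64 and 7.04 in S2 G2. In the 2C gate it had 8.79, 8.29 and 8.39 in wing disc G1, against 6.87, 6.90 and 6.95 in S2 G1. It was lower in the disc in G2 and higher in the disc in G1, so that the G2 difference minus the G1 difference was -2.15 ± 0.23 (adjusted p = 0.00058). For dup this value was -1.81 ± 0.24 (adjusted p = 0.0016), for Mcm10 -1.45 ± 0.20 (adjusted p = 0.0018), for PolA1 -1.25 ± 0.19 (adjusted p = 0.0031) and for dnk -1.12 ± 0.12 (adjusted p = 0.0007).

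Fewer mitotic than replication genes passed. Of 30 mitotic entry and exit genes 5 passed, of 30 spindle genes 3 and of 17 kinetochore genes 2, all of them below 0, where 3.09% of all genes passed. With the number as a block, 6 mitotic entry and exit genes passed below 0 and 1 above, and 6 spindle and 6 kinetochore genes passed below 0. The centromeric histone gene cid was the member with the largest change, at -1.66 ± 0.22 (adjusted p = 0.0016), with 6.05, 6.16 and 5.98 in wing disc G2, against 6.97, 7.32 and 7.59 in S2 G2 in the 4C gate. In the 2C gate it had 7.68, 7.41 and 7.30 in wing disc G1, against 6.88, 6.98 and 7.23 in S2 G1. The disc was lower than S2 on all arrays in G2 and higher on all arrays in G1.

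**Figure D5:**
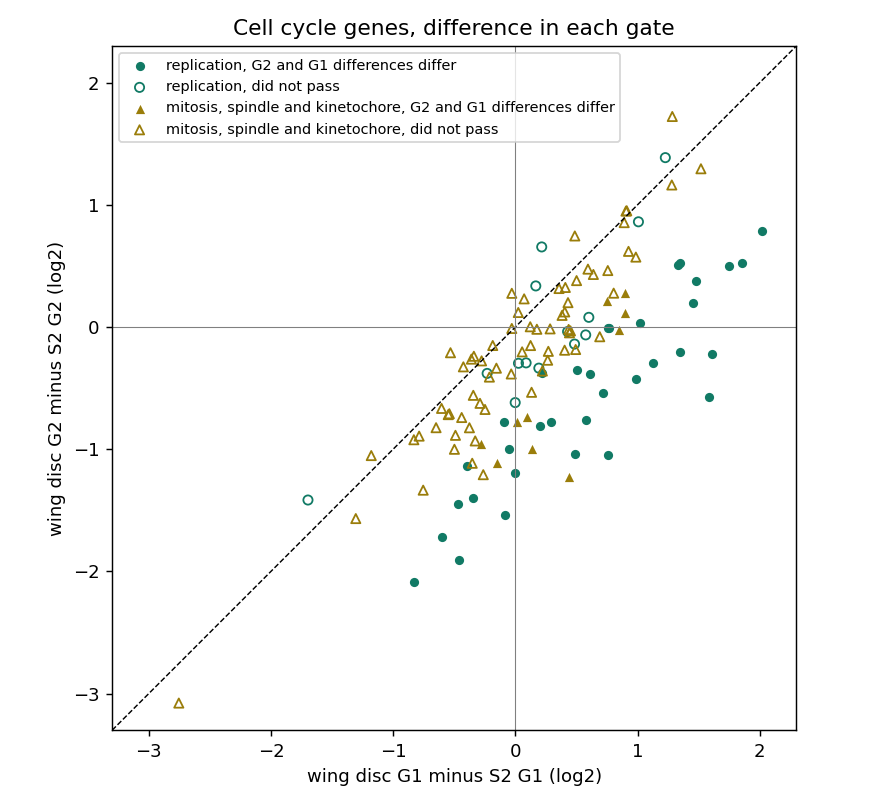
Difference between wing disc and S2 in the 4C gate (vertical axis) and in the 2C gate (horizontal axis), log2 scale, for replication genes (circles) and for genes of mitosis, spindle and kinetochore (triangles), filled where the G2 and G1 differences differ at an adjusted p under 0.05. The dashed line marks equal differences, and 34 of the 48 replication genes are filled and lie below it.

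Some tissue genes also depended on the gate. The uncharacterised gene CG13023 had 8.80, 8.05 and 8.50 in wing disc G2, against 2.95, 3.12 and 3.50 in S2 G2. In the 2C gate it had 5.22, 4.72 and 4.84 in wing disc G1, against 3.38, 3.02 and 2.998 in S2 G1. The disc level was higher in the 4C gate, and the G2 difference minus the G1 difference was 3.47 ± 0.29 (adjusted p = 0.00022). The same value was 3.34 ± 0.53 (adjusted p = 0.0041) for CG15353 and 2.86 ± 0.24 (adjusted p = 0.00022) for Ect3, a predicted beta-galactosidase. Of 37 regional factors, 8 passed above 0 and 0 below (8 and 1 with the block), where 2.29% of all genes passed above 0, and pnr was among them at 0.98 ± 0.20 (adjusted p = 0.018). The proneural genes ac and sc passed above 0, at 1.75 ± 0.20 (adjusted p = 0.00083) and 1.35 ± 0.22 (adjusted p = 0.0047).

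Of 6 tested muscle precursor genes, 3 passed (Act87E, htl and twi), all below 0 (4 with the block), where 3.09% of all genes passed below 0. Him and zfh1 did not pass, at -1.04 ± 0.45 (adjusted p = 0.241) and -1.42 ± 0.39 (adjusted p = 0.0617), nor did kirre, at 0.45 ± 0.23 (adjusted p = 0.342). The list had a median of 3.80 in G2 and 4.97 in G1. The twi levels were 9.52, 8.85 and 9.38 in wing disc G2, against 3.70, 3.66 and 3.64 in S2 G2, and 10.87, 10.39 and 10.46 in wing disc G1, against 3.80, 3.97 and 3.80 in S2 G1. The disc level of twi was lower in the 4C gate than in the 2C gate, and the value for the change of difference was -1.13 ± 0.23 (adjusted p = 0.0169). The share of myoblasts in each gate was not measured, and its part in these values was not tested.

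In the S2 direction, collagen and immune genes changed with the gate. Col4a1 and vkg, already lower in the disc, were further apart in G2, at -1.59 ± 0.33 (adjusted p = 0.0172) and -1.77 ± 0.31 (adjusted p = 0.0072). Of the antimicrobial peptide genes, Drs and Mtk were closer together in G2, at 2.20 ± 0.42 (adjusted p = 0.0111) and 2.05 ± 0.37 (adjusted p = 0.0082). Drs had 6.31, 6.69 and 5.82 in wing disc G1, against 13.78, 13.81 and 13.78 in S2 G1, so its level was higher on every disc array of the 4C gate than on any disc array of the 2C gate. The factor gene jumu had 8.41, 8.67 and 8.43 in wing disc G2, against 8.25, 8.65 and 9.09 in S2 G2 in the 4C gate and did not pass there, while its G1 values were 8.61, 8.87 and 8.60 in wing disc G1, against 6.43, 7.11 and 7.30 in S2 G1 and the value for the change was -1.90 ± 0.33 (adjusted p = 0.0065).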

How the data were processed

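Transcript levels were measured on 12 Affymetrix arrays of sorted wing disc and S2 cells. The authors deposited a linear intensity for each probe set, computed with RMA under R 2.15.2 per the submitters' processing notes, which name no RMA settings. The test took log2 of these intensities. Of 18952 probe sets, 183 controls were dropped. Of the other 18769, the platform annotation (2016) pairs 13647 with a single gene, 402 with more than 1 and 4720 with no gene; 13544 identifiers were found in the RefSeq table (assembly Release 6 plus ISO1 MT), and 0 symbols changed. The filter on dim probe sets left 8317 (7208, 217 and 892 by the same classes).

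All 12 arrays in 4 groups entered 1 limma 3.58.1 fit in R 4.3.3 (lmFit, eBayes, two-sided), so that the groups shared 1 estimate of the spread; contrasts were wing disc G2 minus S2 G2 and that difference minus the same in G1. Calls needed an adjusted p under 0.05. Arrays give no counts, and their number limits the precision. Array correlations were 0.991 to 0.995 within a G2 group and 0.642 to 0.652 between the 2 groups. The script was tested on simulated data. Deviations from the group means of same-numbered G1 and G2 arrays correlated at 0.312 to 0.522 (6 pairs). For 12 pairs of different numbers the range was -0.505 to 0.0142. Deviations within a group sum to 0, so the 2 ranges are not independent. The numbers, which the labels give, were taken to pair the gates in the fits with a block. The main fit held no block.

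Genes named by rule were the 10 largest and 10 smallest differences, up to 3 members of each list in each direction by p with a change of at least 1, the label check, and the 5 largest and 5 smallest changes of difference. Other genes were named after their values were seen. The members and lists were chosen with earlier results of these data known, and the 19 families after the values were seen. Probe sets of near-identical paralogues may share signal, which was not tested. Of 341 genes with several probe sets tested, 30 had probe sets called in opposite directions. A planned search of promoters for motifs was not run, as no promoter sequences were used here. Alternatives were other filters, scalings, eBayes settings, weights, blocks, a floor of 5, the 6 G2 arrays alone, the median probe set and leaving out each array.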

Additional observations from a re-analysis of the deposited data

Results flagged for a closer look

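Of the 173 genes named by rule, which include the 5 largest and 5 smallest changes of difference, 44 differed between the gates by the test of the G2 difference minus the G1 difference at an adjusted p under 0.05. Each value here is that change of difference on the log2 scale, negative where wing disc G2 stood lower against S2 G2 than wing disc G1 against S2 G1. All of these were called from 3 arrays a group, and 31 of the 44 kept the call without each of the 12 arrays in turn, while 13 lost it at least once: Psf1, ncd, ci, ed, magu, Tsp2A, Plod, edin, egr, stv, ovo, FASN1 and kcc.

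Genes of replication and mitosis were all below 0. The values were -2.15 for Orc1, -1.81 for dup, -1.66 for cid, -1.45 for Mcm10, -1.25 for PolA1, -1.12 for dnk, -0.97 for Ts, -0.96 for ncd and -0.74 for Psf1.

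Patterning, epithelial and matrix genes were mostly above 0. The values were 1.75 for ac, 1.35 for sc, 1.02 for magu, 0.98 for pnr, 0.93 for dlp, 0.85 for bou, 0.79 for ed, 0.74 for verm, 0.66 for Tsp2A and 0.60 for ci. Below 0 were the Notch target gene E(spl)m6-BFM at -1.53 and the polarity gene scrib at -1.60. The value of scrib is that of its brightest probe set, and another was called in the opposite direction in the G2 comparison. Tsp2A was the one of the 44 that did not pass with the replicate block, at 0.66 (adjusted p = 0.0599).

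Muscle precursor genes were below 0, with -1.55 for Act87E and -1.13 for twi. Basement membrane genes were below 0 as well, with -1.77 for vkg, -1.59 for Col4a1 and -0.59 for Plod, the lysyl hydroxylase of collagen.

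Immune, germline and stress genes were divided. Drs, Mtk and edin were above 0, at 2.20, 2.05 and 0.81, and so were ovo at 0.67, stv at 0.93 and GstS1 at 0.99. The values below 0 were -1.66 for mael, -1.46 for egr, -1.22 for Prx6c, -0.98 for FASN1 and -0.90 for kcc.

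The genes of the largest changes over the whole table were CG13023 (3.47), CG15353 (3.34) and Ect3 (2.86) above 0, and spidey (-1.97), jumu (-1.90), CG9593 (-1.87) and Sox100B (-1.84) below 0, beside Drs, Mtk and Orc1 given before.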

How the results depend on the processing

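The counts of wing disc G2 minus S2 G2 stayed within 1.5 times of the 6393 reported, in each direction, under every alternative run, and lay between 6064 and 6171 with 1 array left out. Subtracting array medians moved the median difference of all probe sets from -0.03 to -0.15 and gave 2576 higher and 3708 lower, while cyclic loess gave 3203 and 3207. All 172 genes named by rule and called in G2 kept the call without each G2 array. The rule names many of them for large differences or small p-values on these same arrays. Keeping the call was thus close to fixed in advance and says little about other genes. No paired analysis was possible for this comparison because its cell types share only the number 4; with the number within cell type as a random replicate block 6383 probe sets passed. The G2 difference minus the G1 difference depended on the fit: 424 probe sets passed (185 above 0, 239 below), against 928 (471, 457) with a fixed replicate block, 1109 (521, 588) with a random replicate block and 1188 (538, 650) with array weights. Leaving out 1 array gave 273 to 586 in all, 110 to 254 above 0 and 156 to 332 below. The cause was not tested. The block ended the call of 1 of the 44 named genes, Tsp2A. The G2 difference of jumu, which did not pass, ran from -0.37 (without S2 G2 replicate 4) to 0.0544 (without S2 G2 replicate 6). Over list counts 1187 alternatives stayed within 1.5 times and 29 did not, among them insulin and TOR genes, of which 4 in place of 8 were lower without wing disc G2 replicate 4, proneural genes, where the 1 lower gene was lost without S2 G2 replicate 6 or wing disc G2 replicate 3, and G1/S regulators, of which 4 in place of 7 were higher after array medians were subtracted or without S2 G2 replicate 4. Signals near background limit what differences under a log2 level of 5 can show.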

Other observations

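Uncharacterised genes, those known only by a CG or CR number, made up 2256 of the 6760 genes tested. Of these, 765 (33.9%) were higher in wing disc G2 and 1037 (46.0%) lower, against 35.9% and 42.4% over all genes.

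By chromosome arm, the genes of the X had a median difference of -0.04 (1128 genes), and those of the arms 2L to 3R together one of -0.09 (5570 genes). The 41 genes of chromosome 4 had a median of 0.28 in G2 and 0.26 in G1, and 18 of them were higher in wing disc G2 and 12 lower. Their median was 0.16 after array medians were subtracted and 0.31 after cyclic loess.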
